A study of Mus musculus with 40 samples.

Results

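The interferon-response and MHC class I genes described here are 9 of the 47643 genes counted in these libraries. They are 6 interferon-response genes, *Irf7*, *Ifit1*, *Ifit3*, *Isg15*, *Bst2* and *Phf11b*, and 3 genes of the MHC class I molecule, *B2m*, *H2-D1* and *H2-K1*. The members were found by matching the Ensembl identifiers of the count tables to these symbols, and all 9 matched. They were chosen with results of these data in view. The set was put together as genes of a known response, *Phf11b* was selected on its counts in the hippocampus of post-KD recipients, and the correlation between the hippocampus and the frontal cortex of a cohort was among the values that chose the set. That correlation is therefore given as a description, and *Phf11b* received no test of the post-KD change in the hippocampus or of the difference between regions. The other 8 members were tested in fits across all genes, but since their levels by region and condition were also known when the set was proposed, those tests are not independent evidence.

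Interferons are secreted when cells sense viral or microbial nucleic acids. They bind receptors that signal through Janus kinases and STAT proteins, and the STATs together with IRF9 bind a short promoter element, the interferon-stimulated response element (ISRE), which turns on a broad set of antiviral genes. MHC class I molecules, each made of a heavy chain and the light chain beta-2 microglobulin, present peptides from inside the cell to T cells, and their genes are also raised by interferon. In brain, microglia and endothelium respond to interferon, and class I molecules are also made by neurons.

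The study asked how stool microbes of people with epilepsy, collected before (pre-KD) or after (post-KD) treatment with a ketogenic diet (KD), affect the brain of recipient mice. Germ-free mice of the outbred Swiss Webster stock, described in the methods as females of 6 to 8 weeks, were colonized with the stool of 1 of 10 donors and killed on day 4 after colonization. Each of the 20 cohorts (10 donors, pre-KD and post-KD) gave 1 hippocampal and 1 frontal cortical library, each made from a pool of 6 mice, so that there were 40 libraries in 4 groups of 10 and a replicate was a cohort and not a mouse. All groups shared the strain, the colonization with human stool and a control chow, and no uncolonized mice were sequenced. With 1 pool per donor and condition, a cohort's own effect and that of the donor's diet cannot be told apart within a donor.

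The libraries held 1140756 to 2095352 counts, with group medians between 1533506.5 and 1745816.5, and levels are given as CPM, the count of a gene scaled to the total of its library. The summed level of 8 hippocampal neuron markers was 834 to 1363 CPM in the hippocampal libraries and 462 to 797 CPM in the frontal cortical libraries, which did not overlap, and it placed the 2 tissues as labelled. The 8 libraries of donors 9 and 10 held 139 to 276 counts of 4 Y-linked genes and 6 to 42 counts of *Xist*, whereas the 32 libraries of the other donors held 0 to 27 and 487 to 1191, although the methods describe the recipients as female. The post-KD changes and the correlations between regions are also given without these donors. All 40 libraries also held transcripts of intestinal epithelium: of 24 such markers, between 20 and 24 had a count in each library, and their summed level was 46.7 to 524 CPM. That list was written after intestinal genes had been seen among those varying with the class I members.

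The promoters of the members are shown first, because a shared promoter element is what places most of them in a single response. In the 250 bases before the RefSeq start site (assembly GRCm38.p6), both strands were searched for the ISRE core, which is GAAA, any 2 bases and GAAA (TTTC, any 2 bases and TTTC on the other strand), for a shorter run GAANNGAAA (TTTCNNTTC) as found in class I promoters, and for the kappaB sequence of the class I enhancer, which is the first run of capitals in the *H2-K1* stretch printed in the next paragraph. The ISRE core was present in 6 of the 9 members, against 2.98% of 32851 such windows of 27025 genes. The stretches holding it follow, 5′ to 3′ on the strand of the gene, with every match in capitals; the 3 cores of *Isg15* overlap one another, as do the 2 of *Bst2*.
Ifit1, chr19:34640775-34640823, plus strand: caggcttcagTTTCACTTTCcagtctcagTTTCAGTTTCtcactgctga
Ifit3, chr19:34583363-34583426, plus strand: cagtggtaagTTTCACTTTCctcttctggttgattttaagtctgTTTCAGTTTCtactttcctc
Isg15, chr4:156200865-156200956, minus strand: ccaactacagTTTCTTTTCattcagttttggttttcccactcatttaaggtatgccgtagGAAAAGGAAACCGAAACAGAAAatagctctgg
Bst2, chr8:71537577-71537612, minus strand: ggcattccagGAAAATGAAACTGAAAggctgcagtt
Phf11b, chr14:59341361-59341390, minus strand: cacatttagaGAAAAAGAAActagaaacta
B2m, chr2:122147538-122147567, plus strand: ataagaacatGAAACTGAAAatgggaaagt

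The shorter run stood in 3 members, *Isg15*, *H2-D1* and *H2-K1*, against 6.31% of all windows, and the kappaB sequence in *H2-D1* and *H2-K1*, against 0.0304% of all windows (10 windows). The *H2-K1* stretch is shown because both elements lie side by side in it, the kappaB sequence first.
H2-K1, chr17:34000419-34000468, minus strand: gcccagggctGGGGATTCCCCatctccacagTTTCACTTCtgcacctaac
The corresponding stretch of *H2-D1*, which is not printed, shared 49 of its 50 bases, and all 50 lie in the first exon, as untranslated sequence, of a GENCODE transcript of *H2-D1*. No match to any of the 3 patterns was found in the window of *Irf7*, of whose 60 bases nearest the RefSeq start 57 lie in the first exon of a GENCODE transcript, which says only that these letters are not in that window. The 64 bases shown for *Ifit3* were identical in its neighbour *Ifit3b*. These matches are descriptions of the reference sequence and not of binding in these mice.

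**Figure D1:**
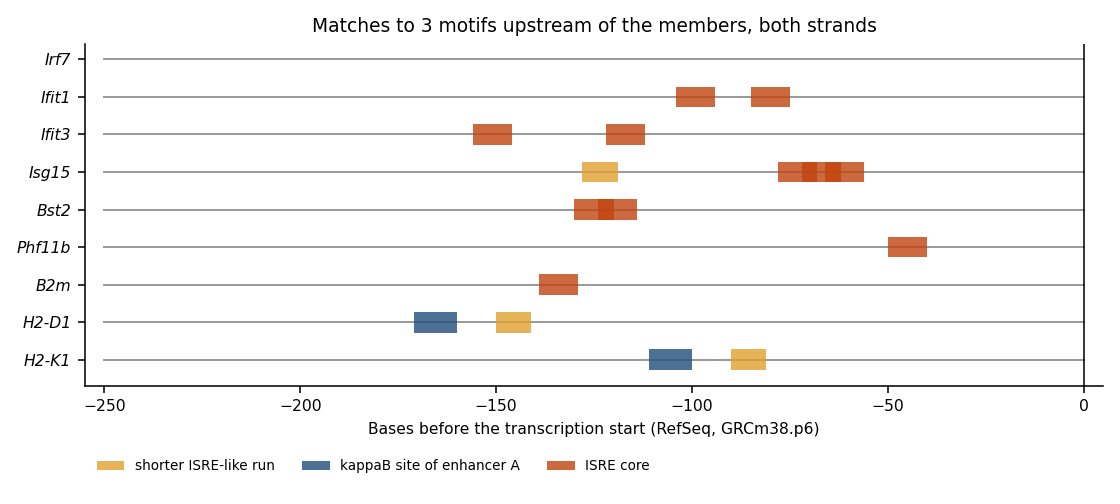
Position of the motif matches in the 250 bases before the start site of each member (x axis, bases before the start; 1 line per gene, 1 mark per match, coloured by motif). Ifit1, Ifit3, Isg15, Bst2, Phf11b and B2m hold the ISRE core, H2-D1 and H2-K1 hold the kappaB sequence followed by the shorter run, and Irf7 holds none of the 3.

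*B2m*, the light chain, was the most abundant member. The gene (ENSMUSG00000060802, chromosome 2 from 122147686 to 122153083) stood at 59.1 ± 24.6 CPM per kilobase of exon (SD, n = 20) in the hippocampus and at 56.1 ± 16.1 in the frontal cortex, and its lowest library, 23.8 and 37.7, lay above the highest library of every other member. The heavy chains stood lower per kilobase, *H2-D1* (ENSMUSG00000073411, chromosome 17 from 35262730 to 35267499) at 6.66 ± 6.39 and 5.97 ± 4.22, and *H2-K1* (ENSMUSG00000061232, chromosome 17 from 33996017 to 34000347) at 3.09 ± 2.70 and 3.49 ± 2.20. The libraries of these 2 genes overlapped in both regions.

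The interferon-response genes averaged 0.0959 to 3.34 CPM per kilobase, with an SD above the mean except for *Ifit1* in the frontal cortex. *Ifit3* (ENSMUSG00000074896, chromosome 19 from 34583531 to 34588731) averaged 3.34 ± 5.67 CPM per kilobase in the hippocampus, a mean between those of the 2 heavy chains, and 1.42 ± 2.19 in the frontal cortex. *Irf7* (ENSMUSG00000025498, chromosome 7 from 141262706 to 141266481) was the lowest in the hippocampus, at 0.410 ± 0.791, and *Phf11b* (ENSMUSG00000091649, chromosome 14 from 59320964 to 59341351) the lowest in the frontal cortex, at 0.0959 ± 0.334. *Isg15* (ENSMUSG00000035692, chromosome 4 from 156199424 to 156200818), *Bst2* (ENSMUSG00000046718, chromosome 8 from 71534255 to 71537456) and *Ifit1* (ENSMUSG00000034459, chromosome 19 from 34640871 to 34650009) averaged 0.446 to 1.35 CPM per kilobase over both regions. No 2 of these 6 genes could be ordered beyond their spread. Levels per kilobase assume reads from the whole transcript, as the library kit of the methods gives, whereas the study's list of reagents also names a kit that reads transcript ends. All coordinates are those of GENCODE M21 (GRCm38).

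**Figure D2:**
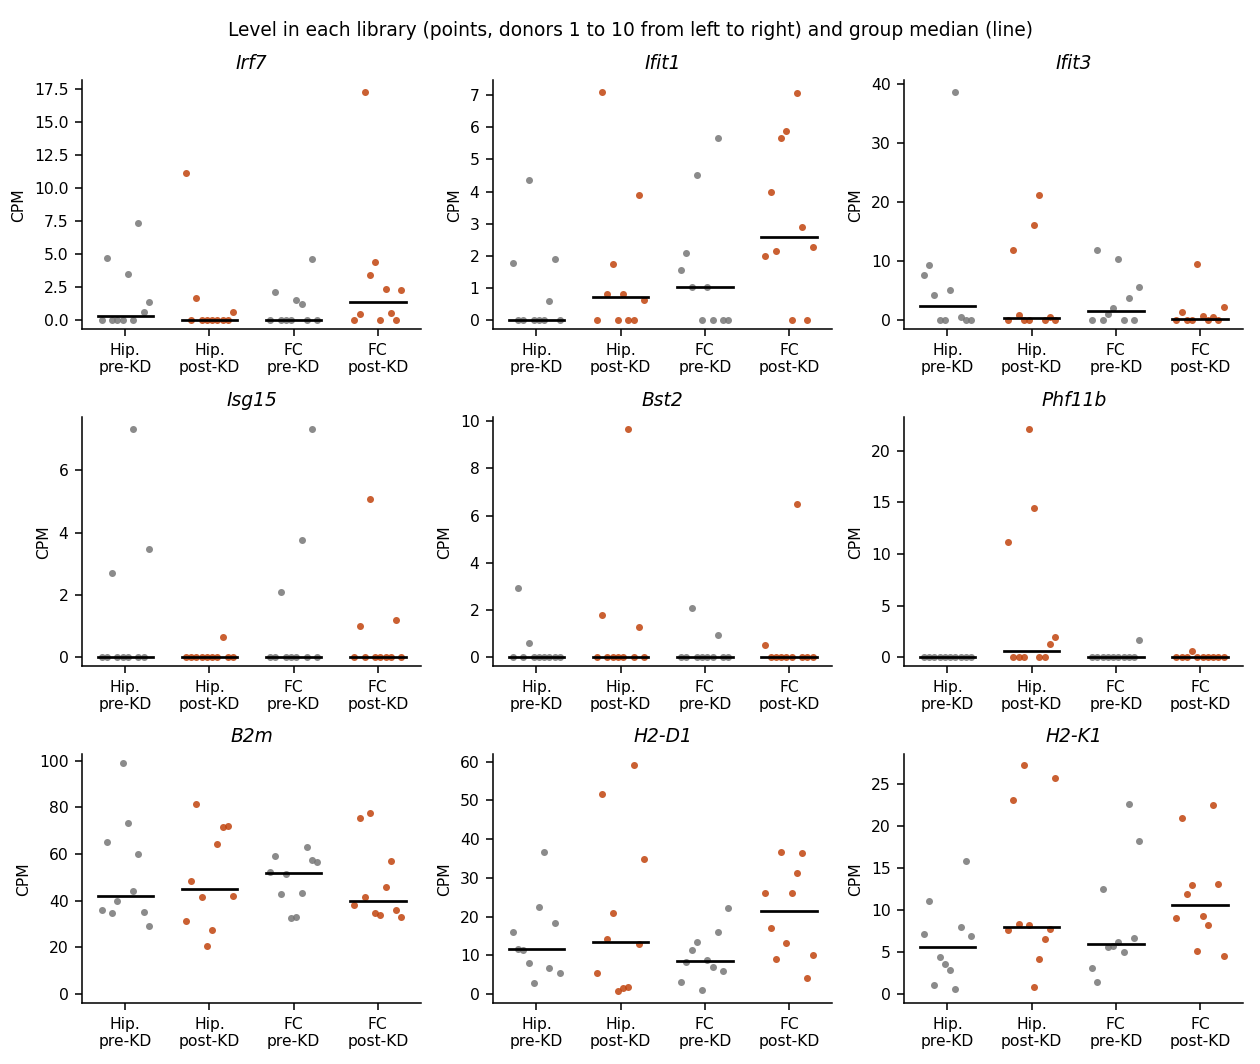
CPM of each member in every library, by region and condition (1 point per library, donors 1 to 10 from left to right; lines mark medians; Hip. is hippocampus and FC frontal cortex). B2m, H2-D1 and H2-K1 have a count in all 40 libraries, and the 6 interferon-response genes are at 0 in 16 to 33 of them.

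The 6 interferon-response genes were patchy, that is, absent from many libraries and high in a few. *Isg15* had no count in 30 libraries, *Bst2* in 31, *Phf11b* in 33, *Irf7* in 21, *Ifit3* in 18 and *Ifit1* in 16, while the 3 class I genes had a count in all 40. Had the same number of counts been spread over the libraries by depth alone, 10.1, 13.5, 7.19, 2.36, 0.094 and 2.42 libraries would have had none. Other genes of like total were patchy too: genes with a total within 10% of that of *Irf7* (456 genes) had no count in a median of 25 libraries, and those with a total like that of *Ifit3* (541 genes) in 14. In pooled tissue, fewer cells of a type and less RNA per cell cannot be told apart.

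*Irf7*, the transcription factor that amplifies the interferon response, was carried by few libraries. In the hippocampus its lowest, median and highest level was 0, 0.318 and 7.36 CPM in pre-KD recipients and 0, 0 and 11.1 CPM in post-KD recipients, and in the frontal cortex it was 0, 0 and 4.66 CPM and 0, 1.42 and 17.3 CPM. The groups overlapped in both regions, and the library of donor 3 gave 32 of the 54 counts of the post-KD frontal cortex. The post-KD against pre-KD log2 fold change was -0.38 (SE 1.46) in the hippocampus and 1.61 (SE 1.23) in the frontal cortex.

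*Ifit1* and *Ifit3* encode proteins that bind viral RNA and the translation machinery and are among the first genes that interferon turns on. *Ifit1* reached 0, 0 and 4.37 CPM (lowest, median and highest) in pre-KD and 0, 0.725 and 7.11 CPM in post-KD hippocampus, and 0, 1.04 and 5.66 CPM and 0, 2.58 and 7.07 CPM in the frontal cortex. Its frontal cortical level was higher in the post-KD cohort of 7 donors and lower in 2, but the groups overlapped and the log2 fold change was 0.99 (SE 1.12). *Ifit3* was at 0, 2.48 and 38.7 CPM and 0, 0.324 and 21.2 CPM in the hippocampus and at 0, 1.61 and 11.9 CPM and 0, 0.289 and 9.57 CPM in the frontal cortex. The cohorts of donor 7 held the highest hippocampal library in both conditions, with 58 of 105 counts and 35 of 77 counts, and had no *Ifit3* count in the frontal cortex. Its log2 fold change was -0.39 (SE 1.14) in the hippocampus and -1.25 (SE 1.17) in the frontal cortex.

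*Isg15*, a ubiquitin-like protein that is joined to other proteins during the response, gave the lowest p of the 8 tested members in the hippocampus. Its counts there were 21 in pre-KD recipients, from 3 libraries, and 1 in post-KD recipients, from 1 library. The highest library of each group stood at 7.34 and 0.655 CPM, and the median of both groups was 0. The ratio of depth-scaled counts was 18.97, higher pre-KD, with an exact 95% counting interval from 3.05 to 785, and it was 9.87 without the highest pre-KD library. edgeR's quasi-likelihood test gave a log2 fold change of -3.30 (SE 1.44) with an unadjusted p of 0.0240 and an adjusted p of 0.309. *Isg15* reached the filter of 10 summed counts only through its pre-KD group, so that nothing is read from the direction of this change. With the donor as a block the log2 fold change was -1.82 with an unadjusted p of 0.302. The unadjusted p was 0.193 with DESeq2, 0.0634 without donors 9 and 10 and 0.0856 without donor 7, which gave 11 of the 21 pre-KD counts. Frontal cortical libraries held 21 and 13 counts of *Isg15*, each from 3 libraries, with highest libraries of 7.33 and 5.09 CPM, and the log2 fold change was -0.79 (SE 1.38).

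*Bst2*, or tetherin, which holds budding virus particles at the cell surface, rested on single libraries. It had 6 and 21 counts in pre-KD and post-KD hippocampus and 5 and 12 counts in pre-KD and post-KD frontal cortex. The post-KD cohort of donor 7 gave 16 of the 21 and 11 of the 12, at 9.69 and 6.48 CPM, so that the highest library of both regions came from the same mice. Median levels were 0 in all 4 groups, and the log2 fold change was 1.63 (SE 1.48) in the hippocampus and 1.03 (SE 1.33) in the frontal cortex.

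*Phf11b*, a PHD-finger gene of a small family on chromosome 14, was chosen for its hippocampal counts, which are described without a test. It had no count in any of the 10 pre-KD hippocampal libraries and 66 counts in 5 of the 10 post-KD ones: 16, 27, 18, 2 and 3 in the cohorts of donors 1, 5, 6, 9 and 10. The highest of these libraries stood at 22.1 CPM, and the groups overlapped, because the other 5 post-KD libraries were also at 0. With the pre-KD group set to a floor of 3 counts in all, the post-KD level was at least 24.4-fold higher, and at least 15.7-fold higher without the library of donor 5. The gene had 3 frontal cortical counts in pre-KD recipients, all in donor 10, and 1 count in post-KD recipients, too few to test, and none of the 5 cohorts with hippocampal counts had one in the frontal cortex.

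*B2m*, the light chain, was measured most closely and varied least. Its lowest, median and highest level in the hippocampus was 29.2, 42.0 and 98.9 CPM (mean 51.7 ± 22.2, SD, n = 10) in pre-KD and 20.5, 45.2 and 81.7 CPM (50.1 ± 21.1) in post-KD recipients. The frontal cortical libraries held 32.4, 51.9 and 63.2 CPM (49.2 ± 10.8) and 32.8, 39.9 and 77.5 CPM (47.3 ± 16.9). The groups overlapped almost entirely, and the log2 fold change was -0.05 in both regions, with an SE of 0.32 in the hippocampus and of 0.23 in the frontal cortex.

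*H2-D1*, a classical heavy chain, gave the lowest p of the tested members in the frontal cortex. It stood at 1.05, 8.61 and 22.2 CPM (lowest, median and highest; mean 9.75 ± 6.28, SD, n = 10) in pre-KD frontal cortex and at 4.16, 21.5 and 36.8 CPM (21.03 ± 11.8) in post-KD frontal cortex. The post-KD library was the higher in 7 of the 10 donors, and the groups overlapped. The log2 fold change was 1.105 (SE 0.49), with an unadjusted p of 0.0266 and an adjusted p of 0.364 by edgeR, and an unadjusted p of 0.0104 by DESeq2. Without donors 9 and 10 the log2 fold change was 1.49 with an unadjusted p of 0.00477. The unadjusted p was between 0.0523 and 0.0693 without donor 1, 4, 7 or 8, and 0.0504 with the level of intestinal transcripts as a covariate. In the hippocampus *H2-D1* stood at 2.91, 11.6 and 36.7 CPM (14.02 ± 10.03) and at 0.820, 13.6 and 59.0 CPM (20.3 ± 21.2). There the post-KD library was the higher in 5 of 10 donors, and the log2 fold change was 0.52 (SE 0.65), which turned to -0.035 with the donor as a block.

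*H2-K1*, the other classical heavy chain, was the lowest of the class I members. Its levels were 0.667, 5.67 and 15.9 CPM (mean 6.18 ± 4.73, SD, n = 10) and 0.805, 7.99 and 27.2 CPM (11.97 ± 9.57) in pre-KD and post-KD hippocampus, and 1.405, 5.98 and 22.6 CPM (8.71 ± 6.87) and 4.53, 10.6 and 22.6 CPM (11.8 ± 6.01) in the frontal cortex. In the hippocampus the post-KD library was the higher in 7 of 10 donors, while the frontal cortex had 6 of 10, and the groups overlapped in both. The log2 fold change was 0.94 (SE 0.88) in the hippocampus and 0.44 (SE 0.59) in the frontal cortex.

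**Figure D3:**
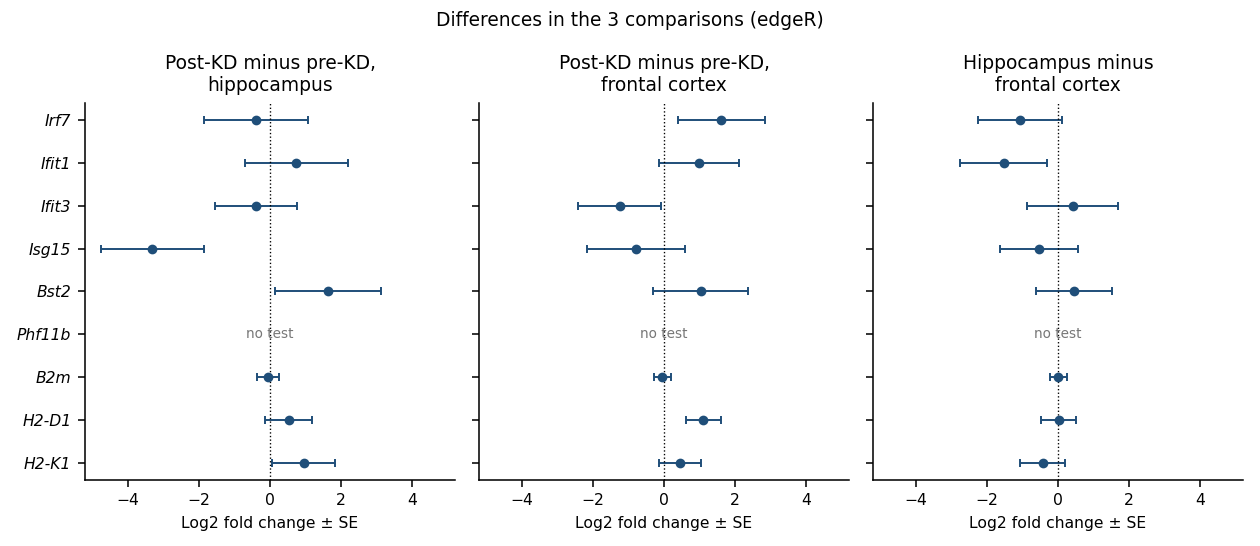
log2 fold change of the tested members, post-KD against pre-KD in each region and hippocampus against frontal cortex (points), with bars of 1 SE on each side. The changes farthest from 0 relative to their SE are those of Isg15 in the hippocampus, -3.30, and H2-D1 in the frontal cortex, 1.105, and the bars of B2m cross 0 in each comparison.

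Across the members, then, no post-KD change passed the adjusted threshold. In the hippocampus 0 of the 8 tested members had an adjusted p under 0.05 by edgeR, against 0.0057% of 17529 genes, and 1 had an unadjusted p under 0.05, *Isg15*, against 10.1% of all genes. DESeq2 gave 0 members at an unadjusted p under 0.05, against 3.42% of all genes. In the frontal cortex 0 of 8 passed the adjusted threshold, against 0.0056% of 17873 genes, and 1 had an unadjusted p under 0.05, *H2-D1*, against 9.68% of all genes. DESeq2 named 1 member as well, against 4.62% of all genes. The median log2 fold change of the 8 members was 0.23 for the hippocampus and 0.72 for the frontal cortex, and over all tested genes it was -0.01 and 0.01. The standard errors of the 5 tested interferon-response genes all exceeded 1 on the log2 scale in both regions, so that smaller changes could not be told from the spread between libraries.

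Without donors 9 and 10 the members also gave 0 adjusted calls in either region. The hippocampal log2 fold changes were then -0.28 for *Irf7*, 0.59 for *Ifit1*, -0.41 for *Ifit3*, -3.05 for *Isg15*, 1.52 for *Bst2*, -0.23 for *B2m*, 0.40 for *H2-D1* and 1.13 for *H2-K1*. In the frontal cortex they were 2.38, 0.89, -1.25, 0.042, 1.055, 0.10, 1.49 and 0.69 in the same order, so that *Isg15* and *B2m* changed sign there.

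No difference between the hippocampus and the frontal cortex passed the test, though the standard errors of the interferon-response genes were over 1 and *Phf11b*, with 66 hippocampal and 4 frontal cortical counts, was not tested. With each cohort as a block, 0 of the 8 members differed between regions at an adjusted p under 0.05 by edgeR, against 2.85% of 19422 genes, and 0 at an unadjusted p under 0.05, against 10.9%. DESeq2 also gave 0 of 8 at an unadjusted p under 0.05, against 13.7%. The log2 difference, hippocampus minus frontal cortex, was 0.01 (SE 0.23) for *B2m*, 0.02 (SE 0.48) for *H2-D1* and -0.43 (SE 0.64) for *H2-K1*, and it ranged from -1.53 (SE 1.22) for *Ifit1* to 0.45 (SE 1.08) for *Bst2* among the tested interferon-response genes. The median over all tested genes was -0.17. The 8 markers of the choroid plexus, which lies beside the hippocampus, summed to 498 to 4387 CPM in the hippocampus and 7.85 to 603 CPM in the frontal cortex. Over the 20 hippocampal libraries that sum correlated with *Ifit1* at 0.58, *H2-K1* at 0.45, *H2-D1* at 0.42 and *Bst2* at 0.35, and with the other members at -0.38 to 0.19. The part of these markers in the members' values was not tested.

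The post-KD change was also compared between the regions directly. Of the 8 members, 0 had an adjusted p under 0.05 by edgeR for this difference, against 0.0154% of 19422 genes, and 0 had an unadjusted p under 0.05, against 2.22%. DESeq2 gave 0 of 8 as well, against 4.89% at an unadjusted p under 0.05. The difference for *H2-D1*, hippocampus minus frontal cortex, was -1.18 (SE 1.02), so its change was not shown to be particular to the frontal cortex. That of *Isg15* was -1.73 (SE 2.19).

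Levels in the 2 regions of a cohort showed little correlation. Both regions of a cohort come from the same pooled mice, and the Pearson correlation of log2 CPM over the 20 cohorts, which is given as a description, was -0.02 for *B2m*, -0.03 for *H2-D1* and 0.08 for *H2-K1*. Among the interferon-response genes it was 0.01 for *Irf7*, 0.11 for *Ifit1*, -0.10 for *Ifit3*, 0.32 for *Isg15*, 0.59 for *Bst2* and -0.16 for *Phf11b*. Thus 1 of 9 members, *Bst2*, reached 0.5, against 2.69% of 19422 genes, and it stood at -0.17 without the 2 cohorts farthest from the median. Without donors 9 and 10 *Bst2* stood at 0.61 and *Isg15* at 0.62, and the other members at -0.12 to 0.31. The median of the members was 0.00672 and that of all tested genes -0.000453, and among the 9928 genes with at least 200 counts in each region it was 0.0143.

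The patchy genes showed the same in their counts. *Irf7* had counts in both regions of 5 cohorts, in 1 region of 9 and in neither of 6, and *Ifit1* in both of 7 cohorts and in 1 region of 10. *Ifit3* had counts in both regions of 5 cohorts and in 1 region of 12. For *Isg15* the 2 regions shared 2 cohorts, for *Bst2* 1 and for *Phf11b* 0.

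**Figure D4:**
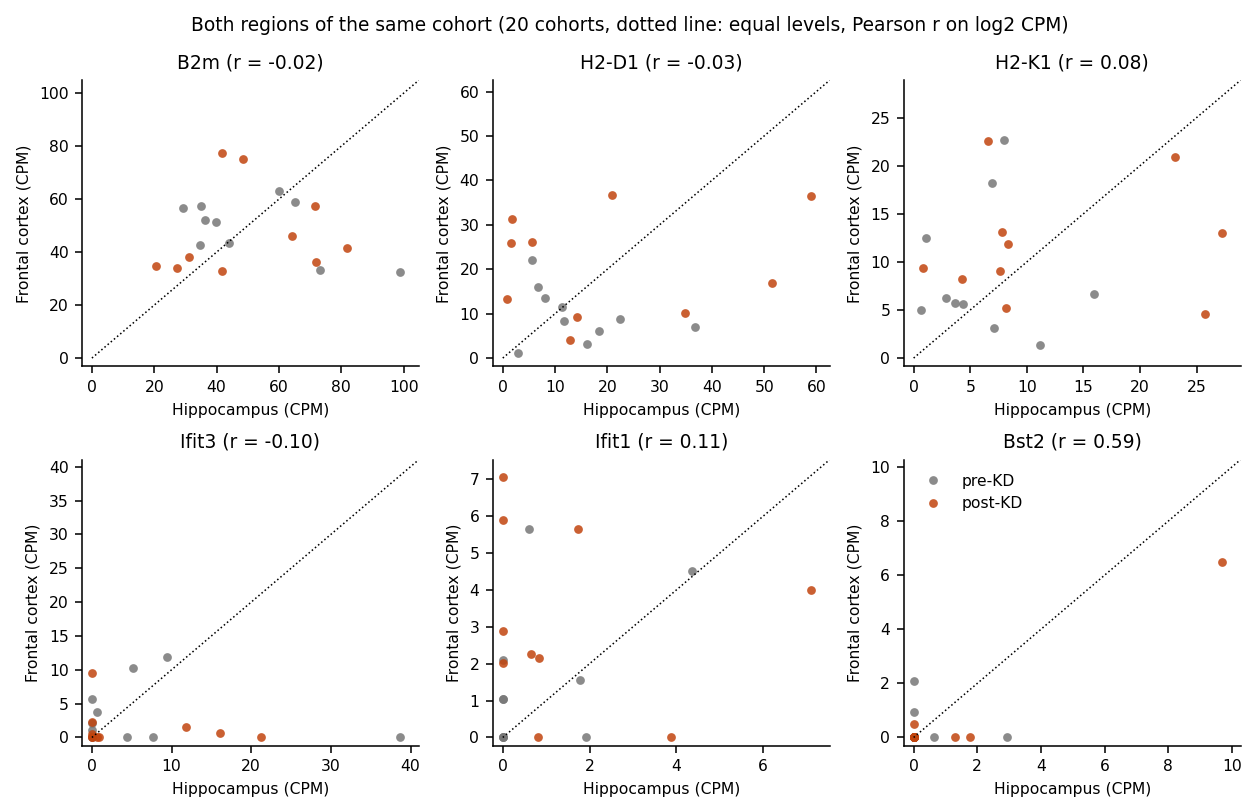
CPM of B2m, H2-D1, H2-K1, Ifit3, Ifit1 and Bst2 in the hippocampus (x axis) against the frontal cortex (y axis) of the same cohort, 20 cohorts per panel, coloured by condition, with a dotted line of equal levels and Pearson r on log2 CPM. The points of B2m, H2-D1 and H2-K1 scatter without a trend (r of -0.02, -0.03 and 0.08), and the r of 0.59 of Bst2 rests on the post-KD cohort of donor 7, which is far from the others in both regions.

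Within a region, correlations between members were given as a description. In the frontal cortex the 3 pairs of class I genes had correlations of 0.34 to 0.50 over 20 libraries, the highest between *H2-D1* and *H2-K1*, and in the hippocampus 0.017 to 0.33. The 15 pairs of interferon-response genes had medians of -0.055 in the frontal cortex and -0.16 in the hippocampus, ranging from -0.46 to 0.46, a range that holds the hippocampal class I values. These points share libraries and depth, and the low counts of the interferon-response genes limit what a correlation can show.

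The genes whose levels were most like those of the class I members, ranked by the lower of the 2 regions' correlations with their summed z-scores among 9928 genes, were *Pigr* (0.57), *Reg3b* (0.57), *Rb1* (0.50), *Os9* (0.50), *Krt19* (0.50), *Smim24* (0.50), *Cwc22* (0.48) and *Axin1* (0.48), against a median of -0.11. *Pigr* carries antibodies across mucosal epithelium, *Reg3b* is an antimicrobial lectin of the gut and *Krt19* a keratin of simple epithelia. The score of the interferon-response members was made from *Irf7*, *Ifit1*, *Ifit3*, *Isg15* and *Bst2*, without *Phf11b*. The genes most like it were *Adamts1* (0.59), *Wls* (0.53), *Slc13a4* (0.52), *Ankra2* (0.50), *Epn1* (0.49), *Kcnt2* (0.48), *Ldb1* (0.47) and *Pikfyve* (0.47), against a median of -0.12. Genes with fewer than 200 counts in either region, among them many interferon targets, did not enter this ranking.

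Because 3 of the genes nearest to the class I members are made by gut epithelium, 24 intestinal markers were set beside every class I gene, and these 3, *Pigr*, *Reg3b* and *Krt19*, are among the 24. Their summed level correlated with *B2m*, *H2-D1* and *H2-K1* at 0.22, 0.29 and 0.48 in the hippocampus and at 0.59, 0.41 and 0.51 in the frontal cortex. Without those 3 markers the values were 0.21, 0.27 and 0.45 for the hippocampus and 0.55, 0.41 and 0.49 for the frontal cortex. Without the 2 libraries farthest from the median of the full sum they were 0.54, 0.32 and 0.41 for the hippocampus and 0.49, 0.26 and 0.28 for the frontal cortex. The value of *H2-D1* in the hippocampus was -0.56 within pre-KD and 0.67 within post-KD libraries, and in the frontal cortex it was 0.25 and 0.47. *Fabp2*, *Zg16*, *Muc2* and *Reg3b* held 1441, 1340, 1285 and 1258 counts over the series and had a count in all 40 libraries, and *Cdx2* held 14. By group, the median summed level was 171 and 170 CPM in pre-KD and post-KD hippocampus and 177 and 207 CPM in pre-KD and post-KD frontal cortex. None of the 24 markers tested in the hippocampus and none of the 23 tested in the frontal cortex had an unadjusted p under 0.05 between conditions by edgeR. With this level as a covariate, added after seeing the data, the log2 fold change of *H2-D1* in the frontal cortex was 1.003 with an unadjusted p of 0.0504 and an adjusted p of 0.527.

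**Figure D5:**
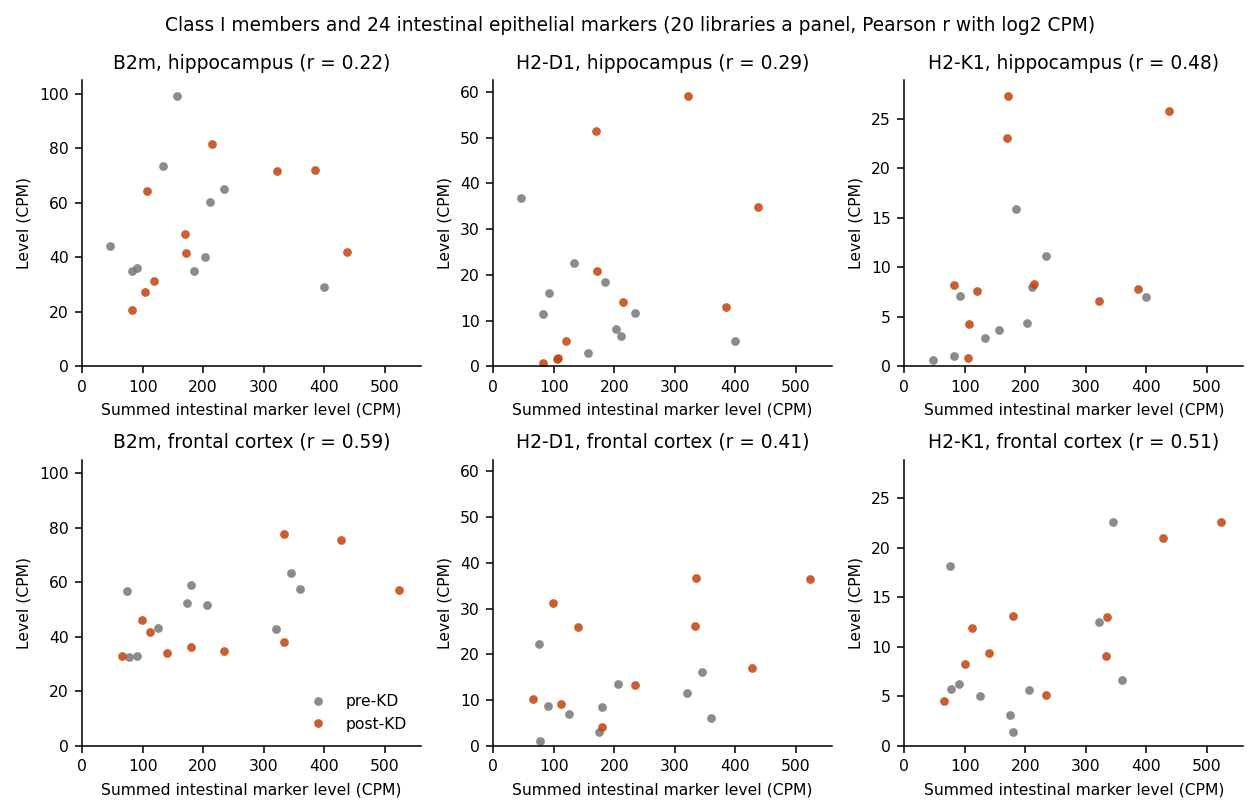
CPM of B2m, H2-D1 and H2-K1 (y axis) against the summed CPM of 24 intestinal epithelial markers (x axis), 20 libraries per panel, by region and coloured by condition, with Pearson r between the summed CPM and the log2 CPM of the gene. The correlation is 0.22 to 0.48 in the hippocampus and 0.41 to 0.59 in the frontal cortex, and the list was written after related genes had been seen among those most like the class I members.

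Markers of the cells that respond to interferon in brain overlapped between all groups. The 12 microglial markers summed to 172 to 390 CPM over all libraries, with group medians of 271 to 304 CPM, and 12 of 12 were found in each group. Between conditions, 0 of the 12 had an adjusted p under 0.05 by edgeR in either region, and 0 had an unadjusted p under 0.05 in the hippocampus, against 10.1% of all genes, and 2 in the frontal cortex, against 9.68%. Among them was *C1qb*, a complement gene, with a log2 fold change of -0.98 (SE 0.44). The 8 endothelial markers summed to 71.7 to 312 CPM. The 10 markers of T, B and NK cells stood at 0 to 21.5 CPM, with 3 to 5 of them without a count in each group, and the 8 markers of neutrophils and monocytes at 0.727 to 17.02 CPM.

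Markers of blood cells had higher medians in the post-KD than in the pre-KD frontal cortex, as *H2-D1* did. The median was 2.98 CPM pre-KD and 7.99 CPM post-KD for T, B and NK cells, 5.45 and 8.63 CPM for neutrophils and monocytes, and 712 and 937 CPM for the 5 markers of red blood cells, 1 of which, *Hba-a2*, had no count in any group. Of the markers tested there by edgeR, 2 of 4, 0 of 3 and 2 of 4 had an unadjusted p under 0.05, against 9.68% of all genes, and 0 had an adjusted p under 0.05. *Hba-a1* had a log2 fold change of 0.49 (SE 0.15) and *Hbb-bs* of 0.41 (SE 0.15), both higher post-KD. *Cd3g* had 1 count pre-KD and 16 post-KD, of which 1 library held 14, and *Cd3d* had 0 and 13, all in 1 library, and DESeq2 gave unadjusted p values of 0.319 and 1. Over the 20 frontal cortical libraries the summed markers correlated with *H2-D1* at 0.43, 0.47 and 0.55. The hippocampal correlations were -0.11, -0.14 and 0.29 in the same order. The part of these markers in the values of *H2-D1* was not tested. In the hippocampus the medians were 0 and 0.328 CPM, 3.03 and 2.02 CPM, and 689 and 657 CPM. Of the markers tested there by edgeR, 1 of 2, 1 of 3 and 0 of 4 had an unadjusted p under 0.05, against 10.1% of all genes. *Cd3d* had 11 counts pre-KD and 0 post-KD, and *S100a8* 10, all in 1 library, and 0. DESeq2 gave them unadjusted p values of 0.427 and 0.457. In both regions *Cd3g*, *Cd3d* and *S100a8* reached the filter of 10 counts, where tested, only through their higher group.

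The rest of the pathway was counted over 11 lists of 157 other genes, of which 141 had a count in at least 1 library. None of the 11 interferon genes listed, among them *Ifnb1* and *Ifng*, had a count in any library, whereas their receptors *Ifnar1*, *Ifnar2*, *Ifngr1* and *Ifngr2* were measured in 17 to 20 of the 20 libraries of each region. After adjustment, 0 of the 116 pathway genes tested in the hippocampus, 0 of 120 in the frontal cortex and 0 of 127 between regions passed by edgeR, with 0 of 127 for the difference between regions in the post-KD change. At an unadjusted p under 0.05 there were 10 genes in the hippocampus (8.62%), 7 in the frontal cortex (5.83%), 4 between the regions (3.15%) and 1 for the difference between the regions in that change (0.787%), against the 10.1%, 9.68%, 10.9% and 2.22% of all genes. DESeq2 gave 3, 5, 6 and 0. Each share was below that of all genes.

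In the hippocampus 9 of the 10 genes were lower post-KD and 1 was higher. Over all 1762 genes at an unadjusted p under 0.05 in that region, 961 were lower and 801 higher. Of the 9 pathway genes lower post-KD, 5 had no post-KD count, and *Gbp9*, *Socs1* and *Phf11d* had 2, 1 and 1. All of these were admitted to the test by their pre-KD counts alone, so that nothing is read from this split. Among transcription factors, *Irf8*, a factor of microglia and other myeloid cells, had 117 counts in pre-KD and 18 in post-KD recipients. The counts came from 6 of the 10 pre-KD and 8 of the 10 post-KD libraries. Mean levels were 7.76 ± 11.6 and 1.19 ± 0.945 CPM (SD, n = 10). The log2 fold change was -2.63 (SE 1.26) with an adjusted p of 0.426 by edgeR and an unadjusted p of 0.0130 by DESeq2. Among the inhibitors of the signal, *Socs3* had 45 and 0 counts, *Usp18* 34 and 0, and *Socs1* 31 and 1. That is a level at least 13.6-fold lower for *Socs3* and 10.2-fold lower for *Usp18* with the post-KD group set to the same floor of 3 counts in all, and a ratio of 28.0 (exact 95% interval 4.67 to 1141) for *Socs1*. Without the library with the most counts, an alternative chosen after seeing the data, these values were 8.29, 5.03 and 9.07. The pre-KD counts of each came from 4 of the 10 libraries, and DESeq2 gave unadjusted p values of 0.0403, 0.0722 and 0.107.

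The other hippocampal genes at an unadjusted p under 0.05 also had few counts. *Gbp9*, a guanylate-binding GTPase, had 90 and 2 counts (ratio 40.7, 10.9 to 341), the 90 from 4 libraries, with a ratio of 16.2 without the highest of them and an unadjusted p of 0.128 by DESeq2. *Oas1c*, of the oligoadenylate synthetase family, had 30 and 0 (at least 9.03-fold lower), the 30 from 2 libraries, with a bound of 4.06 without the higher one and a DESeq2 p of 0.169. The chemokine gene *Cxcl10* was the gene with the higher post-KD value, 2 and 41 counts, each from 1 library, so that without that post-KD library no count was left, and DESeq2 gave an unadjusted p of 0.884. *Phf11d*, a relative of *Phf11b*, had 28 and 1 (ratio 25.3, 4.18 to 1034, and 12.1 without the highest library), higher pre-KD. The class I gene *H2-Q4* had 18 and 0 counts and the class II gene *H2-Ob* 19 and 0, and 1 library held 14 of the 18 and 15 of the 19. The lowest adjusted p among these 10 was 0.0774, and the intervals cover counting error only.

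Of the 7 frontal cortical genes, 5 were higher post-KD and 2 lower. Over all 1731 genes at an unadjusted p under 0.05 in that region, 895 were higher and 836 lower. *Erap1*, *H2-Q2*, *H2-Q7*, *Nlrc5* and *Socs1* reached the filter of 10 counts only through their higher group, so that nothing is read from this split. *Stat2*, which acts with IRF9 on the ISRE, had 138 counts in pre-KD and 433 in post-KD recipients, with a log2 fold change of 1.48 (SE 0.53), an unadjusted p of 0.00641 and an adjusted p of 0.133. *Mr1*, a class I-like gene that presents microbial metabolites, had 10 and 67 counts (log2 fold change 2.49, SE 1.23), and *Erap1*, which trims peptides for class I, 3 and 40 (ratio 12.4, 3.93 to 62.4). *H2-Q2* had 2 and 33 counts, but 1 library held 31 of the 33 and DESeq2 gave an unadjusted p of 0.969. *H2-Q7* had 10 and 0, with 9 of the 10 in 1 library and a DESeq2 p of 0.445. *Nlrc5*, the transactivator of class I genes, had 23 and 1, with 17 of the 23 in 1 library and a DESeq2 p of 0.117, and *Socs1* 0 and 10, from 4 libraries. *Socs1*, with 31 and 1 counts in the hippocampus, was the gene with an unadjusted p under 0.05 for the difference between regions in the post-KD change, at 0.0450 with an adjusted p of 1 by edgeR.

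Between the regions, *Jak2*, a kinase of interferon-gamma and cytokine receptors, was the pathway gene with the lowest p, a log2 difference of -1.32 (SE 0.44), hippocampus minus frontal cortex, with an adjusted p of 0.0836 by edgeR. DESeq2 gave *Jak2* an adjusted p of 0.0154 and *Irf8* 0.0295, both lower in the hippocampus, and these were the 2 pathway genes it called of the 69 to which it gave an adjusted p, against 7.71% of all genes. The receptor gene *Ifnar2* stood at -1.005 (SE 0.43), *Irf8* at -1.87 (SE 0.88), and *Trim21*, an intracellular antibody receptor, had 60 hippocampal and 0 frontal cortical counts, at least 22.05-fold higher in the hippocampus. The 60 came from 5 of the 20 hippocampal libraries, the bound was 10.5 without the highest of them, and DESeq2 gave an unadjusted p of 0.705.

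Some members share sequence with other genes, so that counting can divide or drop their reads. Of all windows of 69 bases, the read length, in the exons of *Ifit3*, 43.5% occurred also in *Ifit3b*, and of those of *Phf11b* 30.9% occurred in 4 other genes, with 12.1% in *Phf11c*. The share was 5.64% for *Ifit1*, 5.98% for *H2-D1*, 3.97% for *H2-K1* and 0.872% for *Isg15*, and 0 for *Irf7*, *Bst2* and *B2m*. The heavy-chain genes differ widely between mouse strains, and reads of these outbred mice were aligned to the reference of an inbred strain. Alleles of the heavy chains were not examined here.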

How the data were processed

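RNA-seq was performed on 40 libraries, 20 from hippocampus and 20 from frontal cortex, each from a pool of 6 mice. The authors deposited raw counts per gene for each region, and per the labels and the methods reads of 69 bases from both ends were aligned to mm10 with STAR 2.5.2a, indexed with SAMtools 1.3 and counted with HTSeq 0.6.0 after quality control with FastQC 0.11.5. The annotation release and the strand setting are not given in the sources used here, so reads of antisense partners cannot be told apart from those of the genes. The methods name a whole-transcript kit and the list of reagents a kit for transcript ends. Depth was 1140756 to 2095352 counts, and all intervals and floors cover counting error only. Of 47643 genes, 47224 matched GENCODE M21 by Ensembl identifier, which gave symbols, positions and exon lengths, and 419 did not. Of 180 pairs of libraries within a group, 0 were identical. Promoter windows came from RefSeq, where all 9 members matched.

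Genes whose counts in a fit added up to 10 or more were kept, scaled by TMM and tested with the quasi-likelihood test of edgeR 4.0.16 (R 4.3.3, limma 3.58.1), two-sided, with Benjamini-Hochberg adjustment over all genes tested. The fits took condition alone within a region, and for the comparison of regions and its interaction a term for each of the 20 cohorts. A gene was called at an adjusted p under 0.05. CPM on the log2 scale used a prior count of 2. The scripts were tested on simulated data (Python 3.11.15, numpy 2.4.6, scipy 1.17.1, pandas 2.3.3, matplotlib 3.10.9).

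The members and the lists were chosen with earlier results of these data known. Named were all 9 members, of each pathway list the genes past the threshold or otherwise those with the lowest p, the near copies of members, and the 8 genes whose correlation with each summed score was the highest in both regions. The other pathway genes at an unadjusted p under 0.05, the intestinal markers and *Socs1* in the interaction were named after their values were seen. Alternatives were DESeq2 1.42.0 (adjusted p-values that it gave as NA stayed NA), its kind of size factors, other filters, the donor as a replicate block, a Y-linked covariate and leaving out each donor in turn. Leaving out donors 9 and 10 and the intestinal covariate were chosen after seeing the data.

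Within a region the labels give both conditions the same donor numbers. The deviations of same-numbered libraries from their group means had correlations of -0.0280 to 0.0299 in the hippocampus and -0.0564 to 0.0317 in the frontal cortex, and 0 of 10 pairs in either region exceeded 0.1. Because the donor is shared but the mice are not, the block is an alternative. Replicates are cohorts, and p-values measure the spread between them.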

Additional observations from a re-analysis of the deposited data

Results flagged for a closer look

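Values that stood apart from the other 9 libraries of their group were looked for in 35 groups of 10 libraries (gap to the nearest library over the range, above Dixon's limit of 0.466 for 10 values), and 16 groups held such a value. Chance flags about 1 in 20 groups of normally distributed values, a rate that does not hold where most libraries are at 0, since there a single count is flagged by construction. Each of the 16 was a high library of an interferon-response gene, and none was of *B2m*, *H2-D1* or *H2-K1*. For *Irf7* these were 11.1 CPM in the post-KD hippocampus of donor 1, 4.66 CPM in the pre-KD frontal cortex of donor 9 and 17.3 CPM in the post-KD frontal cortex of donor 3. *Ifit1* stood at 4.37 CPM in the pre-KD hippocampus of donor 4. *Ifit3* stood at 38.7 CPM in the pre-KD hippocampus of donor 7 and at 9.57 CPM in the post-KD frontal cortex of donor 5.

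*Isg15* stood apart in all 4 groups, at 7.34 CPM in the pre-KD hippocampus of donor 7, 0.655 CPM (1 count) in the post-KD hippocampus of donor 8, 7.33 CPM in the pre-KD frontal cortex of donor 9 and 5.09 CPM in the post-KD frontal cortex of donor 4. So did *Bst2*, at 2.93 CPM in the pre-KD hippocampus of donor 2, 2.09 CPM in the pre-KD frontal cortex of donor 3, and 9.69 and 6.48 CPM in the post-KD hippocampus and frontal cortex of donor 7. *Phf11b* stood at 1.70 CPM (3 counts) in the pre-KD frontal cortex of donor 10 and at 0.566 CPM (1 count) in the post-KD frontal cortex of donor 4, with every other library of those groups at 0. Donor 7 held 4 of these values, and except for *Bst2* no gene stood apart in both regions of the same cohort.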

How the results depend on the processing

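Genes called at an adjusted p under 0.05 in the hippocampus numbered 1, and 0 with DESeq2, 0 with filterByExpr, 0 with the intestinal covariate and 1291 without a filter. The members at an unadjusted p under 0.05 there went from 1 to 0 with DESeq2, with filterByExpr, which left *Isg15* untested, and without donors 9 and 10. In the frontal cortex the genes called went from 1 to 2 with DESeq2 and to 0 with the intestinal covariate, which also took the members at an unadjusted p under 0.05 from 1 to 0. Between regions 554 became 1033 with DESeq2, and for the difference between regions 3 became 0 with DESeq2 and 0 with filterByExpr. The cause of these shifts was not tested.

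With the donor as a replicate block, the genes called were 0 in the hippocampus, where 0 members then had an unadjusted p under 0.05 (*Isg15* -1.82 on the log2 scale), and 3 in the frontal cortex, where *H2-D1* stood at 1.16 with an unadjusted p of 0.0456 by edgeR. *H2-D1* in the hippocampus turned to -0.035 and *Bst2* in the frontal cortex to -0.062. Without the cohort block 1935 genes were called between regions and 348 for the difference. No member was called with or without a block.

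Other log2 fold changes that turned sign were *Ifit3* in the hippocampus with the intestinal covariate (0.22) and, without donors 9 and 10, *Isg15* (0.042) and *B2m* (0.10) in the frontal cortex, *H2-D1* between regions (-0.22) and *B2m* in the difference (-0.35).

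Leaving out 1 donor at a time, the genes called were 0 to 1 in the hippocampus, 447 to 555 between regions and 2 to 4 for the difference. Members at an unadjusted p under 0.05 were 0 to 2 in the hippocampus (0 without donor 7; 2 without donor 2, with *Bst2* added) and 0 to 1 in the frontal cortex (0 without donor 1, 4, 7 or 8, with *H2-D1* at 0.96 to 1.41). In the hippocampus *Irf7* ranged from -2.62 to 0.37, *Ifit1* -0.12 to 1.48, *Ifit3* -0.79 to 0.10, *Bst2* -0.16 to 3.11 and *B2m* -0.21 to 0.19. Frontal cortical *Isg15* ranged from -2.27 to 0.046 and *B2m* -0.15 to 0.022. Between regions *Ifit3* ranged from -0.42 to 1.18, *Isg15* -0.95 to 0.12, *Bst2* -0.20 to 0.82, *B2m* -0.043 to 0.082 and *H2-D1* -0.21 to 0.14. In the difference *Ifit1* ranged from -1.37 to 0.13, *B2m* -0.16 to 0.28 and *H2-K1* -0.071 to 0.61.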
